A study of Mus musculus with 5 samples.

Results

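The 9 genes described here (Trdc, Tcrg-C1, Cd163l1, Blk, Sox13, Maf, Il23r, Il17a and Ccr6) are those of the gamma-delta T cell program that makes interleukin-17. They are 9 of the 26189 genes counted and were taken as a named list, chosen with earlier results of these data known. All 9 were present in the count tables of both pools. The study profiled single cells from atherosclerotic mouse aorta. Live cells carrying CD45, the surface protein of blood-derived cells, were sorted from digested aortic arches of female mice. The labels give their age as 12 weeks, which the design text places at the start of the treatment. All mice had received an adeno-associated virus to induce atherosclerosis and a Western diet for 18 weeks, so an unchallenged aorta is not part of the comparison.

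The animals were C57BL/6J wild-type mice and mice of the C57BL/6N-Saa3tm1.1(KOMP)Vlcg/MbpMmucd line, which carry a whole-body targeted allele on both copies of Saa3; this gene encodes serum amyloid A3, an acute-phase protein. The design text calls them littermates, while the labels give different C57BL/6 substrains. The genotypes were told apart by sample tags, 1 for each, and captured together as 1 sample on a BD Rhapsody cartridge. The number of mice in each pool is not given in the labels, and each genotype is 1 pool, so nothing below is a test between genotypes. Intervals cover counting error alone.

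After cells with more than 25% mitochondrial molecules were left out, the pool labelled wild-type kept 833 of 889 cells and the pool labelled Saa3-/- 823 of 854. No barcode occurred in both pools. The median cell held 6415 molecules in the first and 4698 in the second. Fewer molecules were thus counted per cell in the second pool, for reasons that were not tested. Saa3 itself went against the labels, with 1079 molecules (148 CPM, that is, per 1000000 molecules of the cells concerned) in the pool labelled wild-type and 1268 (242 CPM) in the pool labelled Saa3-/-. The genotypes are therefore named as labels throughout, and every direction between pools rests on them.

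Gamma-delta T cells carry an antigen receptor built from a gamma and a delta chain in place of the alpha and beta chains of conventional T cells. A subset acquires the capacity to make interleukin-17 already in the fetal thymus, settles in barrier and connective tissues and responds to interleukin-23 and interleukin-1 with little need for antigen. Among the 9 genes, Trdc and Tcrg-C1 encode constant regions of the delta and gamma chains, and Cd163l1 encodes a scavenger receptor of the SCART family. Blk encodes a Src-family kinase shared with B cells, Sox13 and Maf encode transcription factors of the lineage, Il23r encodes a chain of the interleukin-23 receptor, Il17a the cytokine and Ccr6 a chemokine receptor.

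In the annotation of GRCm38 (GENCODE release M21), Trdc lies on the plus strand of chr14:54142851-54148868, within the T cell receptor alpha and delta locus. It overlaps Trdv5 and the antisense gene Gm43434 on the other strand. Tcrg-C1 (chr13:19214103-19217024, plus) shares 34.2% of its 50-base stretches with other transcripts, mostly Tcrg-C3 and Tcrg-C2, so its count is uncertain. Cd163l1 lies at chr7:140218267-140231145 (plus), Blk at chr14:63372836-63417037 (minus), Sox13 at chr1:133382303-133424377 (minus) and Maf at chr8:115682942-115707794 (minus). Il23r lies at chr6:67422932-67491855 (minus), Il17a at chr1:20730905-20734496 (plus) and Ccr6 at chr17:8236043-8257141 (plus). Maf overlaps the antisense gene Gm15655, and use of strand in the counting is not stated, so reads of Trdc and Maf cannot be told apart from those of their antisense partners.

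Nuclear receptors of the ROR family, ROR-alpha among them, act on genes of this program and bind the core AGGTCA. RefSeq promoters (GRCm38.p6, 250 bases before to 50 after the start) were at hand for 5 of the 9 genes, 6 promoters in all: Cd163l1, Sox13, Il23r, Il17a and both starts of Ccr6. AGGTCA, searched on both strands, occurred in 3 of the 5 genes and in 3 of the 6 promoters. It began 120 bases before the start of Il17a (minus strand of the gene), 229 (minus) and 66 (plus) before that of Il23r, and 44 (minus) before the first start of Ccr6. Il17f, the neighbouring cytokine gene, had it 58 bases before its start. The same core occurred in 16.3% of all 32851 promoters of this length. The bases before the start of these 4 genes are shown because they carry the matches, which are in capitals (TGACCT where the match is on the other strand).

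Il17a, chr1:20730655-20730904, plus strand: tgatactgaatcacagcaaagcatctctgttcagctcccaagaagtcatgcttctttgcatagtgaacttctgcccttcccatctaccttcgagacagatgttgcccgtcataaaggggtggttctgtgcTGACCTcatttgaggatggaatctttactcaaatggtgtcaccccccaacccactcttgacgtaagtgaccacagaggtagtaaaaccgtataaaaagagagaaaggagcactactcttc
Il23r, chr6:67491856-67492105, minus strand: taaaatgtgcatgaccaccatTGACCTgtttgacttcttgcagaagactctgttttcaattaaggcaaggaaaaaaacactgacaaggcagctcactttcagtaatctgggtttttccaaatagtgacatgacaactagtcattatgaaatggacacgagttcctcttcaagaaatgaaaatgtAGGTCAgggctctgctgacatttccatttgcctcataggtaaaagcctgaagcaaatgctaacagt
Ccr6, chr17:8235793-8236042, plus strand: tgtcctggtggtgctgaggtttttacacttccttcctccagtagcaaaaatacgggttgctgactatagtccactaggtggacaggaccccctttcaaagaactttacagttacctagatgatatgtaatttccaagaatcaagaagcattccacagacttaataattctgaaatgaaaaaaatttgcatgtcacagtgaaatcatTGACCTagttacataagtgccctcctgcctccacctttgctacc
Il17f, chr1:20784271-20784520, minus strand: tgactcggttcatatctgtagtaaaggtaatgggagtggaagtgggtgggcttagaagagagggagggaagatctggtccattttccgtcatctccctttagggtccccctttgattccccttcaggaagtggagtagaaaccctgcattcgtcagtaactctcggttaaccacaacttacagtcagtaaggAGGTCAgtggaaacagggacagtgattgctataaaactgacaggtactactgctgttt

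Other motifs searched on both strands were TGCTGA (the core of MAF sites, in 19.5% of all promoters), ACAAT (a SOX core, 31%) and TGANTCA (the AP-1 site, 7.81%). TGCTGA occurred in Il23r, Il17a and the first Ccr6 promoter, ACAAT in the second Ccr6 promoter and TGANTCA in Il17a. The promoters of Cd163l1 and Sox13 held none of the 4. These matches describe the sequence and say nothing about binding in these cells.

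To ask which T cells and innate lymphoid cells carry the program, cells were gated by fixed markers that exclude the 9 genes. The T gate needed at least 2 molecules of Cd3d, Cd3e and Cd3g together, and more of them than of each marker sum of B cells, myeloid cells, stromal cells and neutrophils. It held 111 cells with the wild-type label and 120 with the Saa3-/- label. In these pools the T gate split into CD4 cells (19 and 14), CD4 Foxp3 cells (1 and 1), CD8 cells (32 and 26) and cells with Cd4 and Cd8 or a recombination gene (Rag1, Rag2 or Dntt, 22 and 40). Cells without Cd4, Cd8a or Cd8b1 are called double negative, and were Trac+ (19 and 20) or Trac- (18 and 19). Trac encodes the alpha chain constant region, so the double negative Trac- cells are those without a detected alpha chain or coreceptor transcript.

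Innate gates allowed at most 1 Cd3 molecule. They held 15 and 9 ILC2 cells (at least 2 of Il1rl1, Gata3 and Il7r), 4 and 2 NK cells, and 1 and 0 ILC3 cells. The NK and ILC3 gates are too small for any statement about those cell types. B cells (46 and 110), myeloid cells (328 and 261) and stromal cells (320 and 302) served as background. Doublets were not called. In sorted CD45-positive cells, the large stromal gate shows that stromal transcripts were abundant, and the median T gate cell of the 2 pools held 5 and 3 stromal marker molecules.

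The receptor gene Trdc marked the double negative Trac- gate. There, Trdc was found in 17 of 18 cells in the pool labelled wild-type (94.4%, exact 95% interval 72.7 to 99.9) and in 17 of 19 in the pool labelled Saa3-/- (89.5%, 66.9 to 98.7). The summed level was 3535 CPM (272 molecules, exact Poisson 95% interval 3128 to 3982) and 3454 CPM (258 molecules, 3045 to 3902). The median cell held 13 and 11 Trdc molecules, so these were not single stray molecules.

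Among gates of 9 or more cells, Trdc was next highest in the double negative Trac+ gate, at 1800.2 CPM (1531 to 2103) and 1299 CPM (1080.3 to 1549), below the Trac- gate beyond counting error in both pools. In the pool labelled wild-type the order went on with ILC2 at 597 CPM and CD4 at 440.4, which did not differ beyond counting error. Cells with a recombination gene or both coreceptors (170.4), CD8 cells (154) and stromal cells (140.1) also had overlapping intervals. B cells (23.4) and myeloid cells (20) were lowest. In the pool labelled Saa3-/- the recombination or double positive gate followed, at 543 CPM (447 to 654), above ILC2 at 93.8 (19.3 to 274) and stromal cells at 82.4.

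The CD4 and CD8 levels of Trdc in the pool labelled wild-type each rested on 1 cell. A single CD4 cell held 33 of that gate's 34 molecules, and a single CD8 cell held 30 of 34. Both of these gates' cells with 5 or more of the 9 genes, 1 in each gate, lacked Trac. By contrast, Trdc was spread over 10 of 22 and 19 of 40 cells of the recombination or double positive gate (45.5% and 47.5%). Its share in B cells was 10.9% and 5.45%, never more than 1 molecule a cell, and in myeloid cells 16.5% and 12.6%. B cells held a median of 3684 and 3276 molecules, fewer than double negative Trac- cells with 4540 and 4088. The 3.85% of CD8 cells of the second pool, 1 molecule in 26 cells, lies below these shares.

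Tcrg-C1 followed Trdc. It was found in 17 of 18 and 17 of 19 double negative Trac- cells, with 117 molecules (1521 CPM, 1258 to 1823) and 96 molecules (1285 CPM, 1041 to 1569). In the Trac+ gate 13 of 19 and 9 of 20 cells held it, at 894 and 608 CPM. All other gates of 9 or more cells stood at 188 CPM or less, and B cells at 4.68 and 4.6. Because part of its sequence is shared with the genes of other gamma constant regions, these molecules may include theirs.

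Cd163l1, the scavenger receptor gene, had its highest levels in the double negative gates. Its 99 and 94 molecules in double negative Trac- cells (1287 and 1258 CPM) came from 16 of 18 and 16 of 19 cells. In the Trac+ gate it stood at 939.7 and 670.4 CPM, and in ILC2 gate cells at 273 and 219 CPM (4 of 15 and 1 of 9 cells). The stromal gate held 126 and 58 molecules in 34 and 20 cells (48.5 and 27 CPM). In the pool labelled Saa3-/-, recombination or double positive cells held 29 molecules in 5 of 40 cells (142 CPM). B cells of that pool held 5 molecules in 5 of 110 cells (11.5 CPM). In the pool labelled wild-type, Cd163l1 was not found in the 22 recombination or double positive cells or the 46 B cells. This limits the share of cells with a molecule to 13.6% and 6.52%. Such limits (3 cells of those gated) say nothing of cells that express a gene without a molecule being caught. It was not found in the CD4 and CD8 cells of the pool labelled Saa3-/- either (limits of 21.4% and 11.5% of cells with a molecule). In CD8 cells of the pool labelled wild-type, 19 of 21 molecules were in 1 cell.

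Il23r was found in 15 of 18 and 15 of 19 double negative Trac- cells. The sums were 29 molecules (377 CPM, 252 to 541) in the pool labelled wild-type and 59 (789.8 CPM, 601 to 1019) in the pool labelled Saa3-/-. In the Trac+ gate the pools stood the other way, at 476 and 346 CPM. In the pool labelled wild-type, the Trac+, Trac- and ILC2 (341 CPM) gates did not differ beyond counting error, and 3 ILC2 cells held all 20 of that gate's molecules. CD4, CD8, and recombination or double positive cells together held 3 and 5 molecules in the 2 pools, the Foxp3 cells included.

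Ccr6 was the exception among the 9 genes. It was found in 0 of 18 and 2 of 19 double negative Trac- cells, which limits cells with a molecule to 16.7% in the first. Its highest level was in B cells, which also use CCR6 for homing, with 12 molecules in 9 of 46 cells (56.2 CPM) and 24 in 15 of 110 (55.2 CPM). The whole T gate held 3 and 4 molecules. At this depth Ccr6 could not be placed in any T cell subset.

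Blk, the kinase, had 2 sites of expression. In double negative Trac- cells it reached 1039.9 CPM (80 molecules, 14 of 18 cells) and 910.3 CPM (68 molecules, 16 of 19 cells), and in Trac+ cells 657 and 429 CPM. B cells, in which Blk acts downstream of the B cell receptor, came next with 318 and 246 CPM in 27 of 46 and 54 of 110 cells. In CD8 cells it was found in 4 of 32 and 0 of 26.

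Sox13, the lineage transcription factor, was sparse. It was found in 5 of 18 and 8 of 19 double negative Trac- cells, with 11 molecules (143 CPM, 71.4 to 256) and 20 molecules (268 CPM, 164 to 413). The Trac+ gate had 90.6 (39.1 to 178) and 105 CPM (50.2 to 193), and these intervals overlapped those of the Trac- gate. No other gate passed 39.2 CPM. A cell without a Sox13 molecule cannot be called negative at 1 to 5 molecules per positive cell.

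Maf was also common outside these gates. Double negative Trac- cells had 611 and 709 CPM (15 of 18 and 16 of 19 cells) and Trac+ cells 611 and 649 CPM, which did not differ beyond counting error. Myeloid cells, in which c-Maf acts in macrophage identity, held 1171 molecules in 213 of 328 cells (317 CPM) and 500 in 114 of 261 (249 CPM). In CD4 cells 10 of 19 and 5 of 14 held Maf, and in CD8 cells 18 of 32 and 6 of 26.

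Il17a, the effector cytokine, was found in 4 of 18 double negative Trac- cells (22.2%, 6.41 to 47.6) and 4 of 19 (21.1%, 6.05 to 45.6). These 4 cells held 29, 16, 1 and 1 molecules in the pool labelled wild-type, and in the pool labelled Saa3-/- 9, 7, 1 and 1. The Trac+ gate added 2 cells in each pool, with 19 and 1 and with 10 and 1 molecules. Within these 2 gates a few cells thus held nearly all of the transcript, while 32 and 20 further molecules lay in cells outside the T and innate gates. Il17a was not found in CD4, CD8, ILC2 or B cells. This limits cells with a molecule to 15.8% and 21.4% of CD4 cells and to 2.73% of the 110 B cells. For the 15 and 9 ILC2 gate cells the limits were 20% and 33.3%. These zeros thus cannot set ILC2 gate cells apart from double negative Trac- cells. Shares in myeloid cells were 1.83% and 1.15%, and in stromal cells 2.5% and 2.98%.

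**Figure D1:**
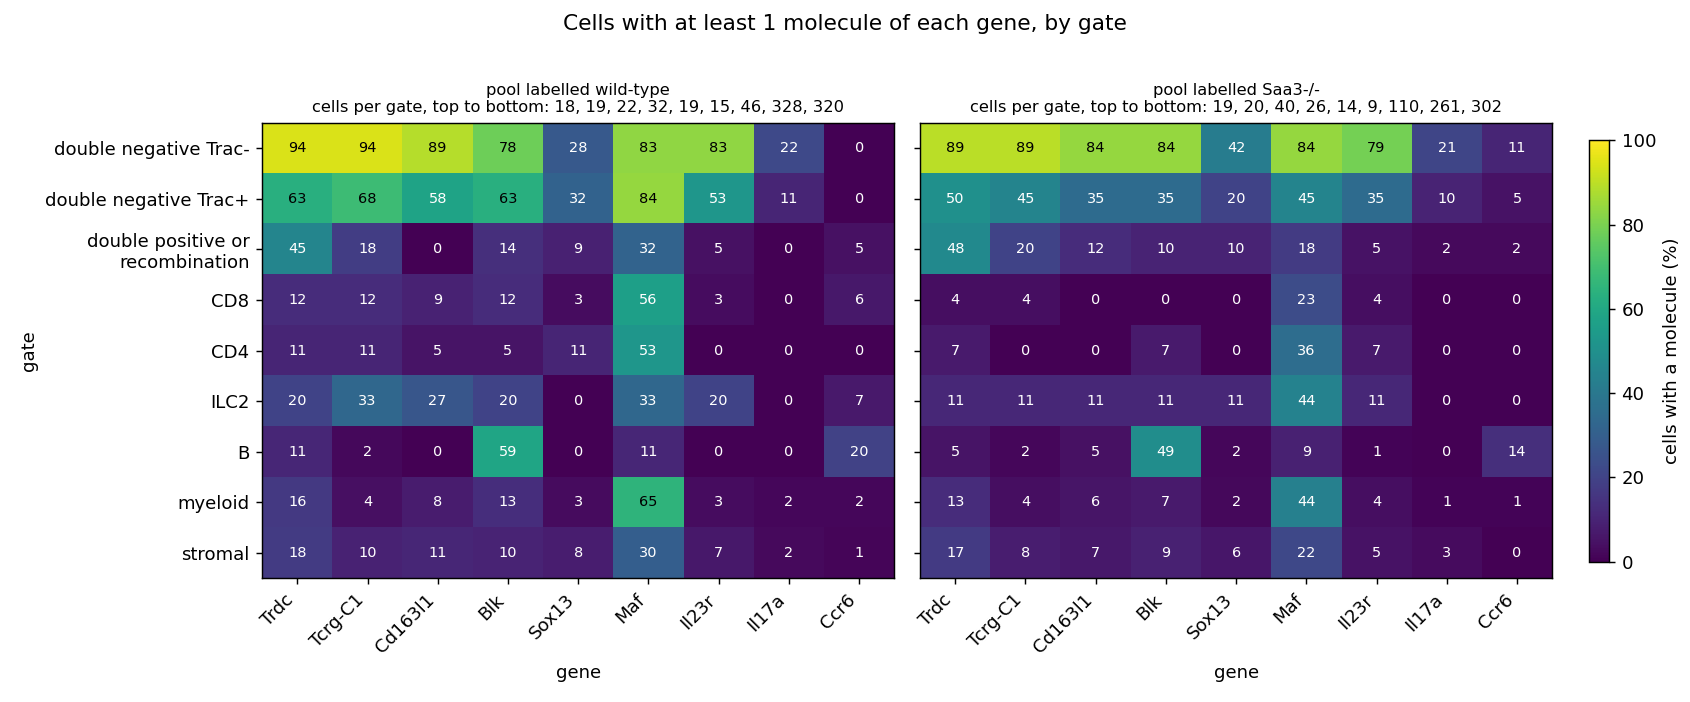
Cells with at least 1 molecule of each gene (%, colour and number), by gate (rows) and gene (columns), in the pool labelled wild-type (left) and the pool labelled Saa3-/- (right). Trdc, Tcrg-C1, Cd163l1, Blk, Maf and Il23r were each found in 77.8% or more of double negative Trac- cells in both pools, while Blk also stood out in B cells and Maf in myeloid cells.

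The genes occurred in the same cells. Double negative Trac- cells held a median of 6 of the 9 genes in both pools. Cells with 5 or more, a limit chosen after the values were seen because 5 is most of the 9, made up 16 of 18 (88.9%, 65.3 to 98.6) and 16 of 19 (84.2%, 60.4 to 96.6). In the Trac+ gate they were 11 of 19 (57.9%, 33.5 to 79.7) and 7 of 20 (35%, 15.4 to 59.2). T gate cells with a coreceptor or recombination gene reached 5 in 3 of 74 (4.05%) and 3 of 81 (3.7%). With no comparison of Cd3 with the other lineage sums, 26 of 51 Trac- cells (51%) held 5 or more in the pool labelled wild-type.

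Among innate cells, 3 of 15 ILC2 gate cells (20%, 4.33 to 48.1) and 1 of 9 (11.1%, 0.281 to 48.2) reached 5 genes. Each of these 4 cells held exactly 1 Cd3 molecule and 1 of them held Il1rl1, the interleukin-33 receptor typical of ILC2. With Cd3 molecules not allowed at all, 0 of 8 and 0 of 7 ILC2 gate cells reached 5. No B cell did (at most 6.52% and 2.73%), and 4 of 328 and 4 of 261 myeloid cells did. The single ILC3 gate cell held 4 of the 9.

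In all, 54 and 43 kept cells held 5 or more of the genes. Of these, 30 and 26 were in the T gate, and 27 and 23 in its double negative part. At least 2 Cd3 molecules were present in 48 of the 54 and 42 of the 43. The stromal gate held 17 and 12 of them, and all 29 had 2 or more Cd3 molecules, with a median of 4 in each pool. They were outside the T gate because their stromal marker sum was at least as high. Whether they are T cells with free stromal RNA or doublets was not tested.

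**Figure D2:**
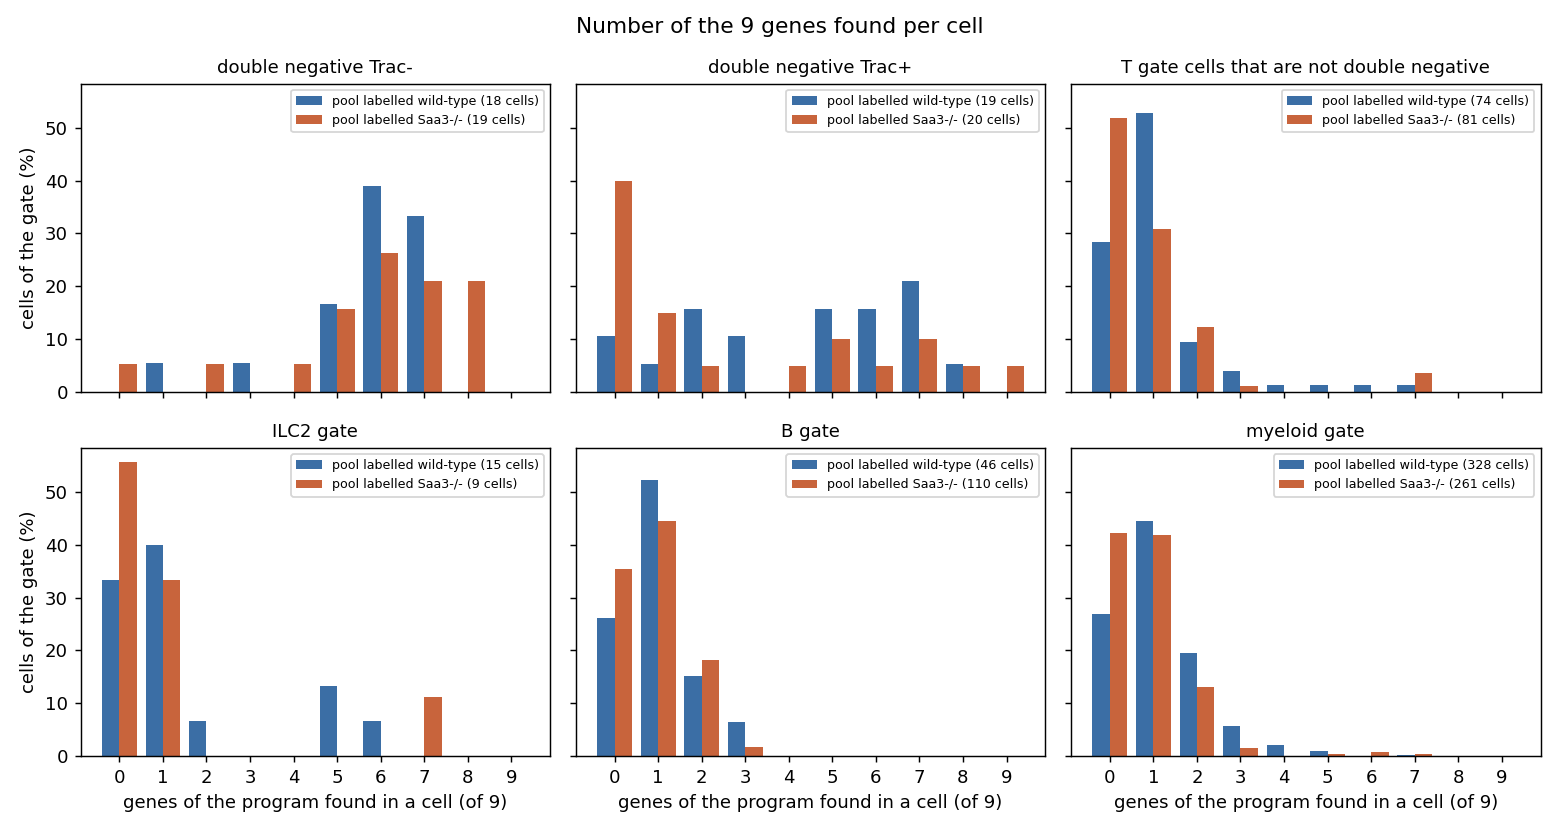
Share of cells (%, vertical axis) by the number of the 9 genes found in a cell (horizontal axis) in 6 gates, blue for the pool labelled wild-type and orange for the pool labelled Saa3-/-. Double negative Trac- cells centre on 6 genes, Trac+ cells spread from 0 to 9, and B, myeloid and other T gate cells lie mostly at 0 and 1.

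Pairs of genes were followed over the 131 T and innate gate cells of each pool. Of the 49 and 50 cells with Trdc, 71.4% and 68% also held Tcrg-C1, against 13.4% and 2.47% of cells without Trdc. Cd163l1 was in 65.3% and 56% of Trdc+ cells against 3.66% and 1.23% of the others, and Il23r in 55.1% and 46% against 3.66% and 4.94%. The reverse direction was tighter. Trdc was found in 91.4% of 35 and 96.6% of 29 Cd163l1+ cells, and Blk in 82.9% and 89.7% of them. Maf separated less, being in 69.4% and 56% of Trdc+ cells and in 50% and 24.7% of the others. These cells span several T cell subsets and innate cells, so the shares do not describe pairing inside 1 gate. Inside the double negative Trac- gate (18 and 19 cells), all 17 Trdc+ cells of each pool held Tcrg-C1. There, Blk was in 3 of 5 Sox13+ and 11 of 13 other cells of the first pool. In the second pool Blk was in 8 of 8 and 8 of 11.

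The 4 Ccr6+ cells of each pool differed in company. In the pool labelled wild-type none of the 4 held Trdc, Cd163l1, Sox13 or Il23r. In the pool labelled Saa3-/- all 4 held Trdc, Tcrg-C1, Cd163l1, Blk and Maf. With 4 cells a pool this was not tested.

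**Figure D3:**
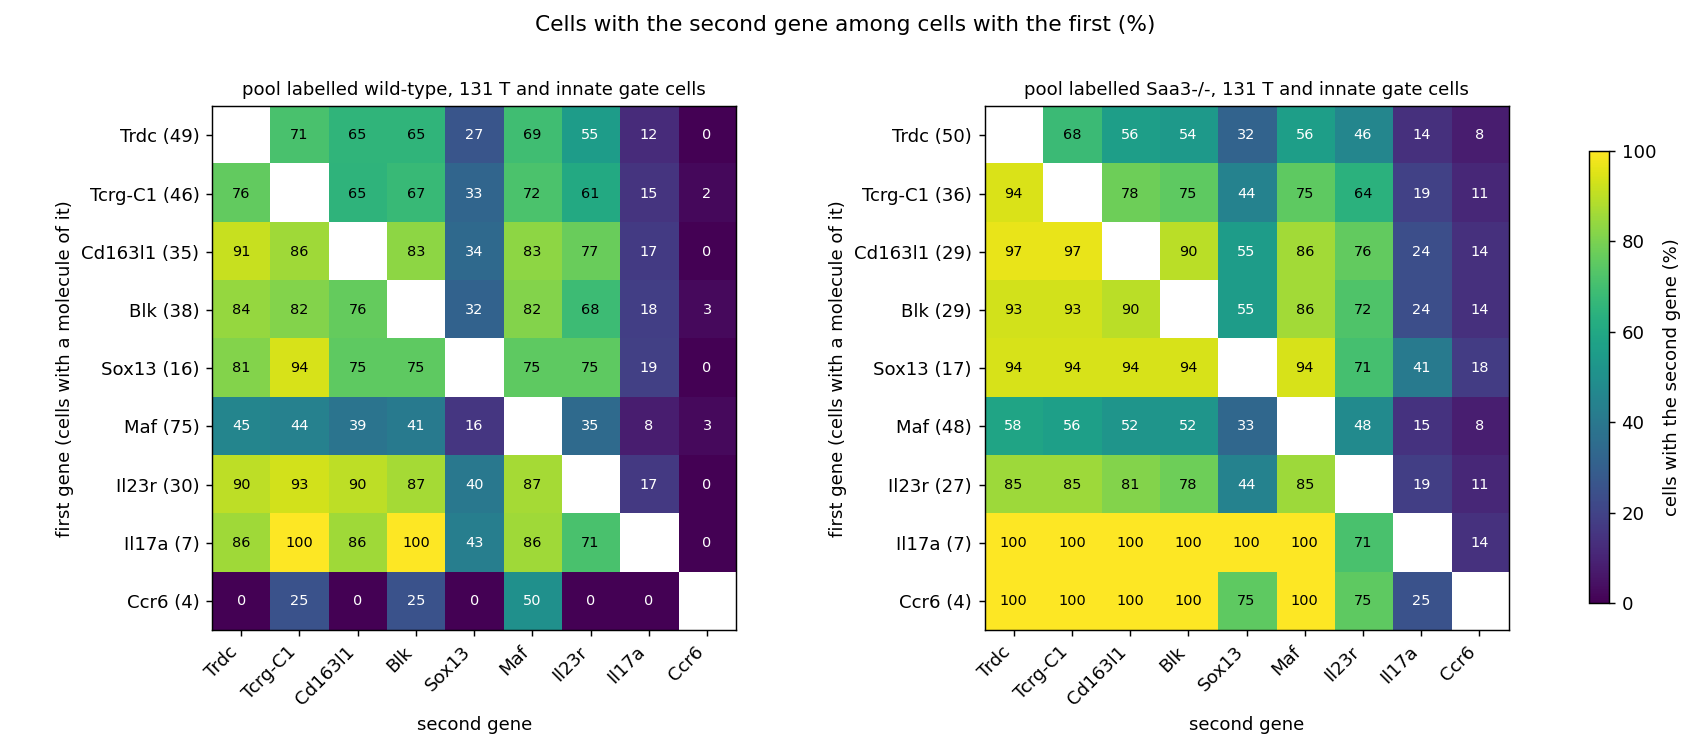
Share of cells (%, colour and number) holding the second gene (columns) among T and innate gate cells holding the first (rows, with the number of such cells), in the pool labelled wild-type (left) and the pool labelled Saa3-/- (right). The rows of Cd163l1, Blk, Il23r and Il17a are high for Trdc and Tcrg-C1 in both pools, while the row of Ccr6, 4 cells a pool, is low in the first and high in the second.

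All 6 Il17a+ double negative cells of each pool held Trdc, Tcrg-C1, Cd163l1 and Blk, and between 6 and 8 of the 8 other genes. Il17f, which encodes the partner of interleukin-17A in a heterodimer, was in 2 and 1 of the 6. Among other T and innate gate cells, Il17a was found in the ILC3 gate cell of the pool labelled wild-type (2 molecules, 3 other genes of the 9, no Trdc) and in 1 recombination or double positive cell of the pool labelled Saa3-/- (3 molecules, 6 others). Beyond these gates it was in 8 and 9 stromal gate cells, of which 6 and 4 held 4 or more others of the 9 genes, and in 6 and 3 myeloid cells, of which 2 and 2 did.

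Most double negative cells with 5 or more of the genes held no Il17a (21 of 27 and 17 of 23). Il1r1, the interleukin-1 receptor, was in 5 of 6 and 6 of 6 cells with Il17a and in 20 of 21 and 14 of 17 without it. Sox13 was in 3 of 6 and 6 of 6 cells with Il17a and in 8 of 21 and 6 of 17 without it. Trdv4, a delta chain variable segment, was in 5 of 6 and 4 of 6 cells with Il17a and in 18 of 21 and 12 of 17 without it. Tcrg-V6, a gamma variable segment known from interleukin-17 producers, was found in 1 and 2 cells with Il17a and 4 and 3 without it, and Tcrg-V4 in none.

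Over the 262 T and innate gate cells, the level of each gene was set against the mean of the other 8, on the scale ln(1 + molecules per 10000). Pearson's r was 0.91 for Cd163l1, 0.88 for Tcrg-C1, 0.86 for Blk, 0.85 for Trdc and 0.73 for Il23r. It was 0.59 for Sox13, 0.57 for Maf, 0.37 for Il17a and 0.14 for Ccr6. The pools differed for some of these: Ccr6 had -0.10 in the pool labelled wild-type and 0.38 in the other, Sox13 0.47 and 0.70, and Maf 0.45 and 0.68. The cells share their libraries and differ in depth, so these values describe the cells and carry no test.

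Outside the 9 genes, those whose level followed the mean of the 9 most closely, among 7317 genes found in at least 20 of these cells, were led by Il1r1 (r = 0.80) and Trdv4 (0.79). Tmem176b (0.75) and Tmem176a (0.75), a pair of neighbouring membrane protein genes, came next. Actn2 (0.67), which encodes an alpha-actinin of muscle, and Zbtb16 (0.66), which encodes the innate-like T cell factor PLZF, followed. Nr1d1 (0.65), the circadian repressor REV-ERB-alpha, Igf1r (0.63), Jaml (0.61) and Pxdc1 (0.61) completed the 10. Each pool alone gave between 0.59 and 0.83 for all of them except Jaml, with 0.47 in the pool labelled wild-type and 0.75 in the other. Pxdc1 was found in 11 of 18 and 14 of 19 double negative Trac- cells against 10 of 93 and 11 of 101 other T gate cells.

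The double negative Trac- gate was then compared with all other T gate cells as a log2 ratio of CPM, within each pool. Of the 9 genes, 8 had the 20 molecules needed in the T gate of each pool. Sox13 (15 and 18 molecules in other T gate cells) and Il17a (20 and 14) needed the molecules of the Trac- gate to pass, which in part fixed their direction. The other 6 had more than 20 molecules in the other T gate cells of each pool. All 8 were at least 1 higher in both pools, where 4.33% of all 4872 genes compared were, and for Sox13 and Il17a nothing is read from that share. The median of the 8 was 2.87 and 2.79, and the median of all genes was -0.0842 and -0.0976. The 9 genes, the gates and the gene lists below were chosen with earlier results of these data known. Here and for those lists, the share over all genes is therefore background alone, and nothing was tested against it.

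Trdc had a log2 ratio of 3.01 in the pool labelled wild-type and 2.76 in the pool labelled Saa3-/-, and Tcrg-C1 3.01 and 2.79. Cd163l1 had 2.82 and 2.65 and Blk 2.91 and 2.91. All 4 of these lay between 2.65 and 3.01. Sox13 had 2.52 and 2.78, Il23r 2.32 and 3.26, and Il17a 4.16 and 2.99. Maf was lowest, at 1.10 and 1.60, and in the first pool it was at least 1 in 8 of 12 alternative settings. With cells of other lineage sums above 1 left out, Trdc had 0.19 in the first pool, where the whole T gate then held 4 cells. In another setting, double negative cells that held Trbc1 or Trbc2 were moved to the other T gate cells. Tcrg-C1 then had 0.90 in the first pool and Cd163l1 0.77 in the second, with few cells left in the gate.

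Of the other gamma-delta receptor genes, 3 of 10 were abundant enough. All 3 were higher in both pools, where 4.33% of all genes were. Tcrg-C2 had ratios of 2.00 and 1.23, with sequence shared with Tcrg-C1, and Tcrg-C4 had 2.89 and 1.36. Trdv4 had 3.41 and 3.17, from 43 and 45 molecules in 13 of 18 and 13 of 19 cells. Tcrg-V6 had 4 and 6 molecules in the gate, too few for a ratio.

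Among regulators of the interleukin-17 program, 2 of 6 compared were higher, 1 was lower and 3 were neither. Over all genes compared, 4.33% were higher and 6.81% lower in both pools. Rora, which encodes the ROR-alpha receptor, had ratios of 1.59 and 2.11, and Zbtb16 had 2.37 and 2.04. Sox4 was lower, with 2 and 4 molecules in the gate against 104 and 112 in other T gate cells (ratio -2.01 in the second pool). It needed the molecules of the other T gate cells to be compared, which in part fixed its direction.

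Of 19 surface and other genes tied to interleukin-17 producers, 14 were compared. Of these, 12 were higher in both pools, where 4.33% of all genes were. The list was chosen with earlier results of these data known, so that share is background alone. Actn2 (18 and 18 molecules in other T gate cells) and Serpinb1a (12 and 20) needed the molecules of the Trac- gate to be compared. For these 2 nothing is read from that share. Il1r1 had 2.57 and 3.00, Il7r, the interleukin-7 receptor, 1.60 and 2.57, and Cxcr6, a chemokine receptor of tissue-resident lymphocytes, 2.04 and 2.04. Tmem176a and Tmem176b lay between 2.12 and 2.33. Serpinb1a, a protease inhibitor, had 4.03 and 2.14. Il18r1, Il2ra, Icos, S100a4, Actn2 and Cd44 were the other 6. Ramp1 (1.20 and 0.67) and Lgals3 (-0.75 and 0.04) were neither. None of the 8 other type 17 cytokine genes, Il17f and Il22 among them, had enough molecules for a ratio.

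The genes of the alternative, interferon-gamma program ran the other way. Of 9 compared, 8 had ratios of -1 or less in both pools, as 6.81% of all genes did. These 8 held at most 4 molecules in the gate and needed those of the other T gate cells to be compared. That in part fixed their direction, so nothing is read from the share. The other T gate cells include the CD8 cells (32 and 26). With gate counts of 3 or fewer set at 3, Klrd1 was 1.73-fold and 1.13-fold lower and Gzmb 1.29-fold lower in the second pool, so these 2 did not reach 2-fold on their counts. Ccl5, a chemokine of cytotoxic cells, had 4 molecules in the gate against 1172 elsewhere in the pool labelled wild-type (ratio -5.08), and 1 against 825 in the other. Nkg7, of cytotoxic granules, had 0 molecules against 260 and 0 against 198, at least 11.2-fold and 10.6-fold lower with the gate set at 3 molecules. Eomes, the transcription factor, had 0 against 143 and 0 against 67, at least 6.18-fold and 3.6-fold lower. Il2rb, a chain of the interleukin-2 and interleukin-15 receptors, was the exception, higher at 1.22 and 2.18.

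Beta chain transcripts were still present in the gate, which had been cleared of Trac, Cd4 and Cd8 transcripts by its definition. Trbc2 had 78 and 67 molecules there (1014 and 897 CPM against 2486 and 2446 in other T gate cells). Trbc1 had 29 and 21 (377 and 281 CPM against 489 and 879). With cells holding either gene left out, 1 and 3 cells remained in the gate.

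**Figure D4:**
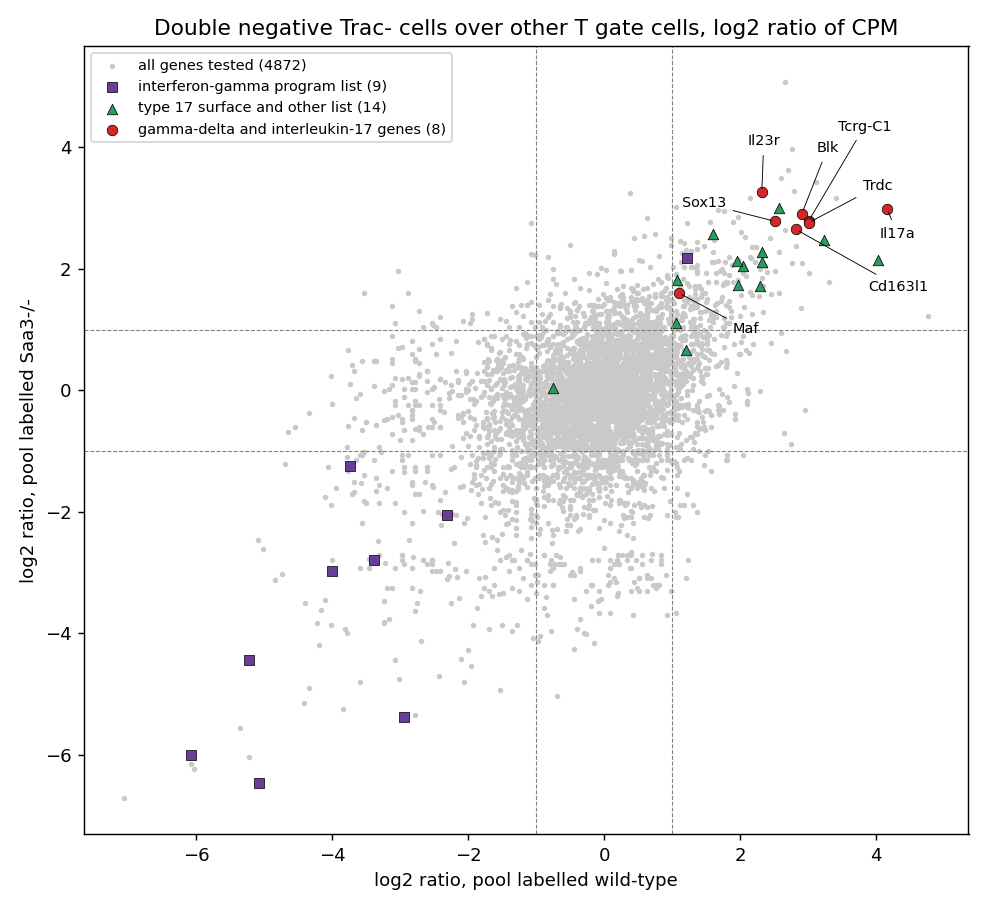
Log2 ratio of CPM in double negative Trac- cells over all other T gate cells, in the pool labelled wild-type (horizontal axis) and the pool labelled Saa3-/- (vertical axis); each point is 1 of 4872 genes, and dashed lines mark ratios of 1 and -1. The 8 genes compared (red circles) lie above 1 on both axes with 12 of 14 surface genes (green triangles), and 8 of 9 interferon-gamma program genes (purple squares) lie below -1 on both, with 0.5 molecules added to each count.

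Between the pools, the double negative Trac- gate was compared first by size. It held 16.2% of T gate cells (9.9 to 24.4) in the pool labelled wild-type and 15.8% (9.81 to 23.6) in the pool labelled Saa3-/-. Within it, log2 ratios with the pool labelled Saa3-/- in the numerator were -0.03 for Trdc, -0.24 for Tcrg-C1, -0.03 for Cd163l1, -0.19 for Blk and 0.21 for Maf. Sox13, with 11 against 20 molecules, had 0.88. Ratios of at least 1 in size were found for 2 of the 8 genes with enough molecules, Il23r and Il17a, while 11.8% of all 1520 genes compared in this gate were past that limit.

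For Il23r, 29 molecules in the first pool stood against 59 in the second, a ratio of 1.05, in 15 cells each. The Poisson intervals of its levels (252 to 541 and 601 to 1019 CPM) did not overlap. Over the whole T gate the ratio was 0.70 (74 against 97 molecules). In 11 alternative settings it lay between 0.53 and 1.40.

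Il17a had 47 and 18 molecules, a ratio of -1.32, in 4 cells each. In the first pool, 1 cell held 29 of the 47 molecules (61.7%). Over the whole T gate the ratio was -0.74 (67 against 32 molecules), and it ran from -2.10 to -0.19 over 12 alternative settings. The number of positive cells was 4 in each pool, and the difference in level rests on 2 cells a pool.

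In the whole T gate none of the 8 genes passed the limit, where 6.96% of 7790 genes did. Trdc stood at 0.21, Tcrg-C1 at -0.02, Cd163l1 at 0.17, Blk at -0.07, Maf at -0.11 and Sox13 at 0.85. The share of T gate cells with Trdc was 40.5% and 40%. Maf was found in 60.4% and 36.7% of T gate cells at similar levels (324 and 301 CPM), and the T gate cells of the second pool held fewer molecules (median 5035 and 4120.5). The part of depth, of the mice pooled and of the substrains in any of these differences was not tested.

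**Figure D5:**
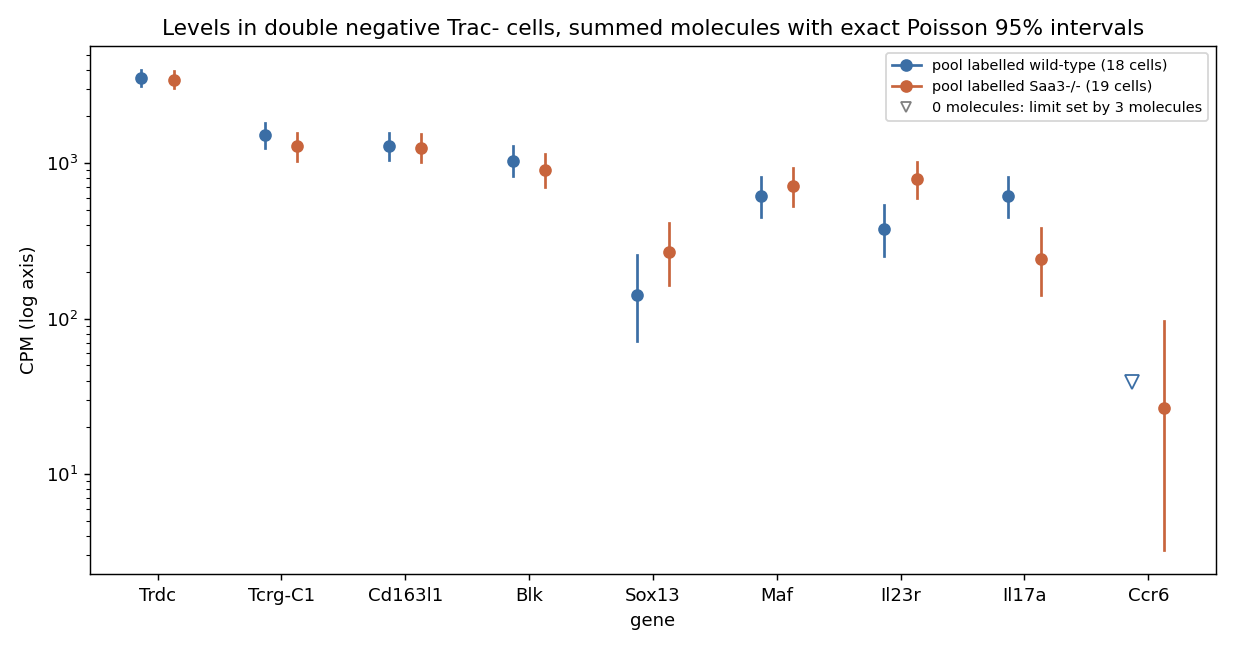
Level of each gene in double negative Trac- cells (CPM, log axis) in the pool labelled wild-type (blue, 18 cells) and the pool labelled Saa3-/- (orange, 19 cells), with exact Poisson 95% intervals that cover counting error alone; the open triangle is the limit set by 3 molecules where none was found. Intervals of Trdc, Tcrg-C1, Cd163l1, Blk, Sox13 and Maf overlap between pools, and those of Il23r and Il17a do not.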

How the data were processed

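The data are counts of molecules per gene and cell for 2 sample tag pools of 1 multiplexed aortic sample. Per the file headers, the authors made the deposited counts with the BD Rhapsody WTA Analysis Pipeline 1.11.1 (GRCm38, GENCODE release M19, intronic reads included, refined cell calling on). The submitters' processing notes also name R 4.3.1, Seurat 4.3.0 and mm10. The genotype of each tag is given by the names of the deposited tables alone. The 4 macrophage culture samples were not analysed here. Some items are not reported here.

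Cells with at most 25% mitochondrial molecules were kept and gated on raw molecules with Python 3.11.15, numpy 2.4.6, pandas 2.3.3 and scipy 1.17.1. A cell was positive at 1 molecule. Shares carry exact (Clopper-Pearson) and sums exact Poisson 95% intervals. CPM is per 1000000 molecules of the same cells. Log2 ratios used a pseudocount of 0.5 molecule and genes with at least 20 molecules (over both pools, or in the T gate of each pool for ratios between gates). A ratio counted as past the limit at 1 in size. A fold against 3 molecules or fewer is a bound set at 3 over the group. Depth was 7289593 and 5231922 molecules.

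The 9 genes, the gates and the gene lists were chosen with earlier results of these data known. Named genes are the 9, those of the lists and the 10 with the highest correlation with the mean of the 9. There is 1 pool per genotype, so no test was made. The functions were tested on simulated data. Alternatives were other cell filters, Cd3 minimums, lineage rules, receptor rules, positivity at 2 molecules, thinning to 1500 molecules, scalings, pseudocounts and count minimums.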

Additional observations from a re-analysis of the deposited data

How the results depend on the processing

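No paired analysis was possible because each genotype is 1 pool and no result comes from a test. Over the alternative settings, 123 of 154 values of the main counts and shares stayed within their limit and 31 moved past it. For shares that limit was the counting interval, and for numbers of genes it was a fixed fold. Of 281 single-gene ratios, 237 stayed within counting error and 44 moved past it. No ratio of at least 1 in size changed sign in the alternatives run. The small pool ratios in double negative Trac- cells did: those of Trdc, Cd163l1, Blk and Tcrg-C1, all below 0 as reported, were above 0 in 3 of 13, 2 of 11, 2 of 12 and 1 of 11 alternatives. The settings that moved most values left few cells. With all other lineage sums at most 1, the T gate held 4 and 11 cells (pool labelled wild-type first, here and below). Double negative Trac- cells were then 25% and 27.3% of it, Trdc was in 100% and 66.7% of them, Il17a in 0% of both, and 100% of those of the first pool held 5 or more genes. Other T gate cells held 5 or more in 33.3% and 0%, and 0 genes could be compared, so 0 were past either limit. With Trbc1 and Trbc2 also required absent, 1 and 3 cells (0.901% and 2.5%) remained. Of these, 100% and 33.3% held 5 or more genes, 100% and 66.7% held Trdc, 100% of the first pool held Il17a, other T gate cells reached 5 in 26.4% and 21.4%, and 5 of 8 genes were higher in both pools. With no lineage comparison, Trdc was in 56.9% and 5 or more genes in 51% of Trac- cells of the first pool, and with cells thinned to 1500 molecules the latter was 54.9%. With 1 Trac molecule allowed, other T gate cells of the first pool reached 5 in 7.14%. ILC2 gate cells with 5 or more genes fell to 0% in the second pool at 2 molecules for a positive cell, and to 0% in both without Cd3 molecules. The number of genes past the limit between pools was 1 with at least 4 Cd3 molecules, 1 with 1 Trac molecule allowed and 1 with each cell weighing the same. With the stromal sum left out of the lineage comparison, chosen after seeing the data, the T gate held 153 and 205 cells and Trac- cells were 16.3% and 11.7% of them. Of these, 80% and 83.3% held 5 or more genes, and 7 of 8 genes were higher in both pools (Maf had 0.91 in the first). The causes were not tested beyond the fewer cells named. Depth limits what can be said of sparse genes such as Sox13, Ccr6 and Il17f.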

Other observations

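The cytokines that act on this program were measured in the same sample. Il1b, which encodes interleukin-1 beta, the ligand of the receptor encoded by Il1r1, had 824 molecules in 136 of 328 myeloid cells of the pool labelled wild-type (223 CPM) and 456 in 87 of 261 of the pool labelled Saa3-/- (227 CPM). It was not found in the double negative T cells of either pool. Il23a, which encodes the specific chain of interleukin-23, had 1 molecule in the myeloid gate and 1 in the stromal gate of each pool, so its level could not be compared at this depth.

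Il6 was highest in the stromal gate, with 266 molecules in 42 of 320 cells (102 CPM) and 59 in 20 of 302 (27.5 CPM). Il17ra, the receptor chain that receives interleukin-17, was found in 41.2% and 36.8% of myeloid cells and in 43.2% and 37.5% of T gate cells. Its partner chain Il17rc was found in 10% and 6.62% of stromal gate cells and in 1.52% and 0.766% of myeloid cells. Cxcl1, a neutrophil chemokine known to respond to interleukin-17, had 682 and 491 molecules in myeloid cells and 653 and 302 in stromal gate cells. In the stromal gate of the pool labelled wild-type, 185 of the 653 were in 1 cell.

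Trdc also appeared in cells with a recombination gene or both coreceptors, in 10 of 22 and 19 of 40 cells, above its share in B cells (10.9% and 5.45%). Thinned to 1500 molecules a cell, the shares were 15.4% and 26.4%, against 2.81% and 3.44% in B cells. Tcrg-C1 was in 18.2% and 20% of these cells and Il23r in 4.55% and 5%. In the pool labelled Saa3-/-, 3 of the 40 cells held 7 of the 9 genes and lacked Trac.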
